A study of Danio rerio with 246 samples.

Results

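The AP-1 and EGR immediate early genes examined here are fosab, fosb, both genes with the symbol JUNB, jun, jund, egr1, ier2a, btg2 and dusp1. These 10 genes were chosen by name, with earlier results of these data known, out of 21876 genes in the count table. They were followed in 246 single cells sorted by fluorescence from the kidney marrow, the blood-forming tissue of zebrafish, and sequenced with a modified Smart-seq2 protocol. The cells came from 6 reporter lines, with 47 mpx_EGFP cells, 43 cd41_GFPlow cells, 39 Runx123_GFP cells, 38 lck_GFP cells, 31 lck_GFP_rag1 cells and 48 rag2_GFP cells. The lck_GFP and rag2_GFP cells shared 1 plate, and each other line had a plate of its own, so line and plate cannot be told apart outside that pair. The labels name no animals, ages or treatments and do not say what rag1 adds to the lck_GFP_rag1 name. Each line was therefore 1 sample, cells were not replicates, and no p-value was calculated.

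Immediate early genes are transcribed within minutes of a stimulus from factors that the cell already holds. Fos and Jun proteins pair to form AP-1, a transcription factor that binds regulatory DNA of many response genes, and Egr1 is a zinc finger transcription factor induced by the same kinase cascades. Dusp1 is a phosphatase that switches MAP kinases off, Btg2 restrains cell division, and Ier2 is a small nuclear protein induced with the others. These roles are known mainly from mammals. In blood cells the genes are known to respond to growth factors, to receptor signals and to the handling of tissue.

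Reads per cell ranged between 47630 and 2969770, and detected genes per cell between 516 and 4901. The median number of detected genes was 1606 in mpx_EGFP, 2804 in cd41_GFPlow, 2295 in Runx123_GFP, 925 in lck_GFP, 1065 in lck_GFP_rag1 and 782 in rag2_GFP cells. A cell was taken to carry a marker list when at least 3 of its genes reached 10 CPM, reads per 1000000 reads of the cell. Neutrophil markers were carried by 47 of 47 mpx_EGFP cells, T cell markers by 38 of 38 lck_GFP cells and B cell markers by 42 of 48 rag2_GFP cells. Among the lck_GFP_rag1 cells, 26 of 31 carried NK markers and 9 of 31 T cell markers, and 7 of 38 lck_GFP cells also carried NK markers. The cd41_GFPlow cells were mixed, with neutrophil markers in 20 and macrophage markers in 15 of 43, and Runx123_GFP cells carried thrombocyte markers in 26 and erythroid markers in 14 of 39.

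The genes ier2a, dusp1, btg2 and fosab were found in a higher share of mpx_EGFP cells than of the cells of any other line, but for all 4 genes the interval of that share overlapped the one of lck_GFP. The summed levels of ier2a and dusp1 were higher in lck_GFP than in mpx_EGFP. Levels below are CPM of the counts summed over a line, with 95% exact Poisson intervals, and a gene was taken as present in a cell at 10 CPM or more. For a share of cells, the interval is the exact Clopper-Pearson one. Reads were not corrected for PCR copies, so all intervals cover counting error only. In every line the lowest cell had 0 CPM of each of the 10 genes, so the cells of all lines overlapped for each gene.

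Among the Fos genes, fosab was the one found regularly. It was present in 17 of 47 mpx_EGFP cells (36.2%, interval 22.7 to 51.5%), with a median of 1057 CPM and a highest value of 3384 CPM among the cells with it. In the other lines fosab was found in 4 of 43 cd41_GFPlow, 5 of 39 Runx123_GFP, 6 of 38 lck_GFP, 4 of 31 lck_GFP_rag1 and 3 of 48 rag2_GFP cells. The summed level of fosab was 331 CPM in mpx_EGFP (324 to 338), 121 CPM in lck_GFP, 112 CPM in lck_GFP_rag1, 37 CPM in Runx123_GFP, 27.3 CPM in rag2_GFP and 26.1 CPM in cd41_GFPlow. Most cells of each line had none, and a single cell gave 18.7% of the fosab reads of mpx_EGFP and 86.3% of those of cd41_GFPlow. The paralogous Fos gene fosb was present in 1 cd41_GFPlow cell at 108 CPM and in 1 lck_GFP_rag1 cell at 48.5 CPM. Both cells also carried macrophage markers, 11 and 16 of them. No fosb read was found in mpx_EGFP, where 0 of 47 cells allows a share of up to 6.38%, taken as 3 cells of the total, and the exact interval reaches 7.55%.

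**Figure D1:**
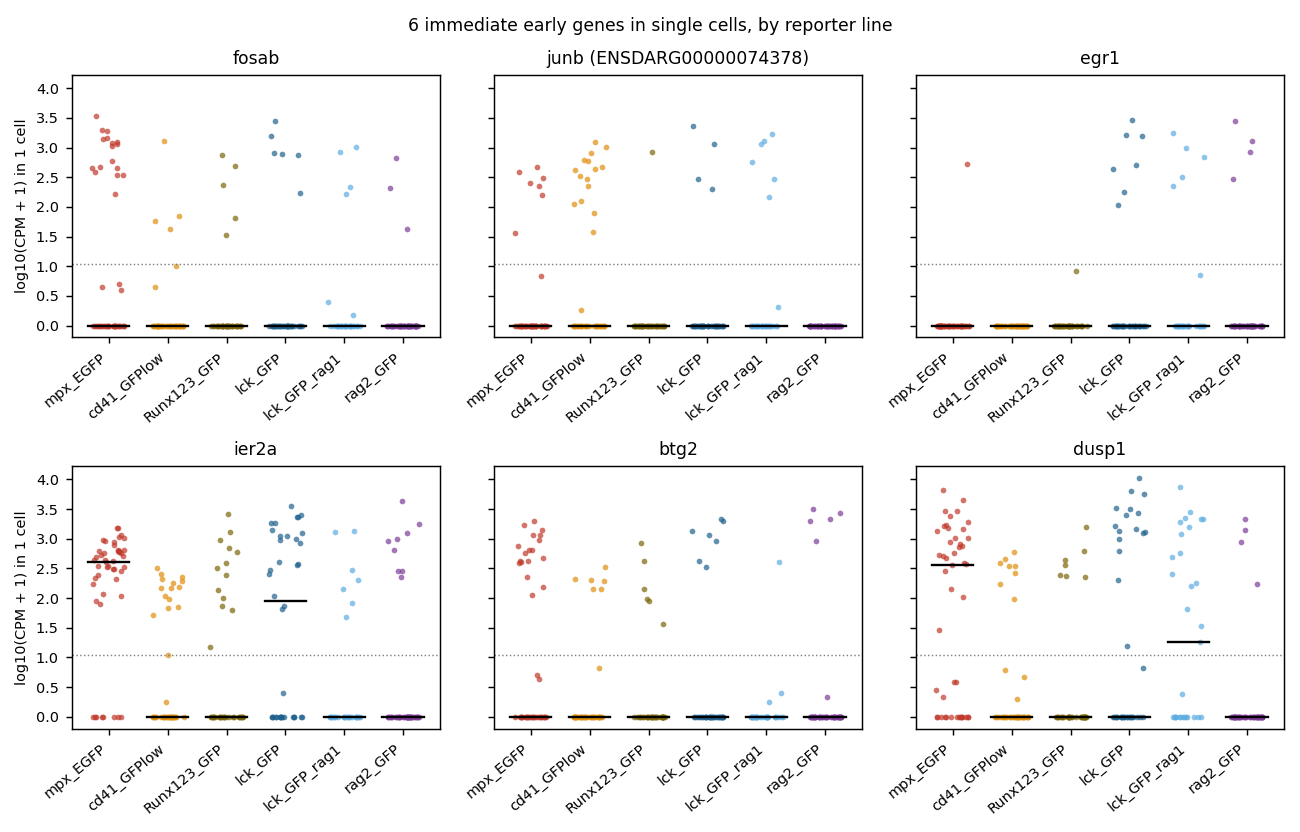
Levels of 6 genes in single cells, as log10(CPM + 1) on the vertical axis, by reporter line on the horizontal axis. Each point is 1 cell, the black bar is the median over cells and the dotted line marks 10 CPM; ier2a and dusp1 are the genes with a median above 0 in mpx_EGFP cells, at 402 and 365 CPM.

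The Jun genes showed a different distribution over lines. The 2 genes with the symbol JUNB were taken as junba and junbb, but the gene names used here do not tell which is which, so they are given by identifier. The gene junb (ENSDARG00000074378) was present in 15 of 43 cd41_GFPlow cells, with a median of 409 CPM among these and a highest value of 1215 CPM. It was found in 7 of 47 mpx_EGFP, 1 of 39 Runx123_GFP, 4 of 38 lck_GFP and 6 of 31 lck_GFP_rag1 cells, and no rag2_GFP cell had a read of it. The interval of the cd41_GFPlow share overlapped those of mpx_EGFP, lck_GFP and lck_GFP_rag1. The summed level was highest in lck_GFP_rag1, at 191 CPM, with 161 CPM in cd41_GFPlow and 134 CPM in lck_GFP. Among cells with the gene, the median was 873 CPM in lck_GFP_rag1 and 711 CPM in lck_GFP, both above that of cd41_GFPlow. In contrast, junb (ENSDARG00000104773) had a narrow range of summed levels, between 10.9 CPM in lck_GFP and 33.3 CPM in mpx_EGFP, and was present in 8 of 39 Runx123_GFP cells.

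The genes jun and jund were rare. The jun gene encodes the classical partner of Fos, and it had no read in mpx_EGFP, Runx123_GFP or lck_GFP cells. It was present in 2 of 31 lck_GFP_rag1 cells, at 3185 and 1661 CPM, and both cells carried NK markers and dusp1. Single cells of rag2_GFP and cd41_GFPlow had jun at 1152 and 39.1 CPM. The jund gene reached 119 CPM in rag2_GFP, all of it from 1 cell at 5772 CPM that carried 6 B cell markers. The jund gene was also present in 3 of 43 cd41_GFPlow cells and in 1 cell each of mpx_EGFP and lck_GFP_rag1. Levels of jun and jund in a line are thus levels of 1 to 3 cells.

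The Egr gene was found mostly in lymphoid reporter lines. The egr1 gene was present in 7 of 38 lck_GFP cells (18.4%, interval 7.74 to 34.3%), with a median of 503 CPM among these and a highest value of 2865 CPM. In the other lymphoid lines egr1 was present in 5 of 31 lck_GFP_rag1 and 4 of 48 rag2_GFP cells. The summed egr1 levels were 234, 178 and 174 CPM in lck_GFP, lck_GFP_rag1 and rag2_GFP, and 47.8 to 56.5% of the reads of each line came from its top cell. By contrast, 1 of 47 mpx_EGFP cells had egr1, at 524 CPM, no cd41_GFPlow cell had a read and Runx123_GFP had a single read. At 0 of 43 cells, a share of up to 6.98%, or 3 cells of the total, is allowed in cd41_GFPlow, and the exact interval reaches 8.22%. The egr1 intervals of the lymphoid lines overlapped those of mpx_EGFP (0.0539 to 11.3%), cd41_GFPlow and Runx123_GFP.

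The induced regulators ier2a, btg2 and dusp1 were the most widely shared. The ier2a gene was present in 39 of 47 mpx_EGFP cells (83.0%, 69.2 to 92.4%), at 79.0 to 1532 CPM, and the median over all these cells was 402 CPM. It was present in 21 of 38 lck_GFP cells (55.3%, 38.3 to 71.4%), with a highest value of 3532 CPM, and in 15 of 43 cd41_GFPlow, 13 of 39 Runx123_GFP, 7 of 31 lck_GFP_rag1 and 9 of 48 rag2_GFP cells. The interval of mpx_EGFP for ier2a overlapped that of lck_GFP and lay above those of the other 4 lines. The summed ier2a level was nonetheless higher in lck_GFP, at 600 CPM, than in mpx_EGFP, at 449 CPM, and the median among cells with the gene was 984 CPM in lck_GFP and 502 CPM in mpx_EGFP.

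The MAP kinase phosphatase gene dusp1 was present in 28 of 47 mpx_EGFP cells (59.6%, 44.3 to 73.6%), 16 of 31 lck_GFP_rag1 cells (51.6%, 33.1 to 69.8%) and 16 of 38 lck_GFP cells (42.1%, 26.3 to 59.2%). These intervals overlapped one another. The highest cell had 10683 CPM in lck_GFP, 7413 CPM in lck_GFP_rag1 and 6743 CPM in mpx_EGFP. Summed dusp1 levels were 816, 797 and 751 CPM in the same lines, and 97.4 CPM in Runx123_GFP, 62.0 CPM in cd41_GFPlow and 53.9 CPM in rag2_GFP. Present in 18 of 47 mpx_EGFP cells (38.3%), btg2 was found in 7 of 38 lck_GFP, 6 of 39 Runx123_GFP, 6 of 43 cd41_GFPlow, 5 of 48 rag2_GFP and 1 of 31 lck_GFP_rag1 cells.

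**Figure D2:**
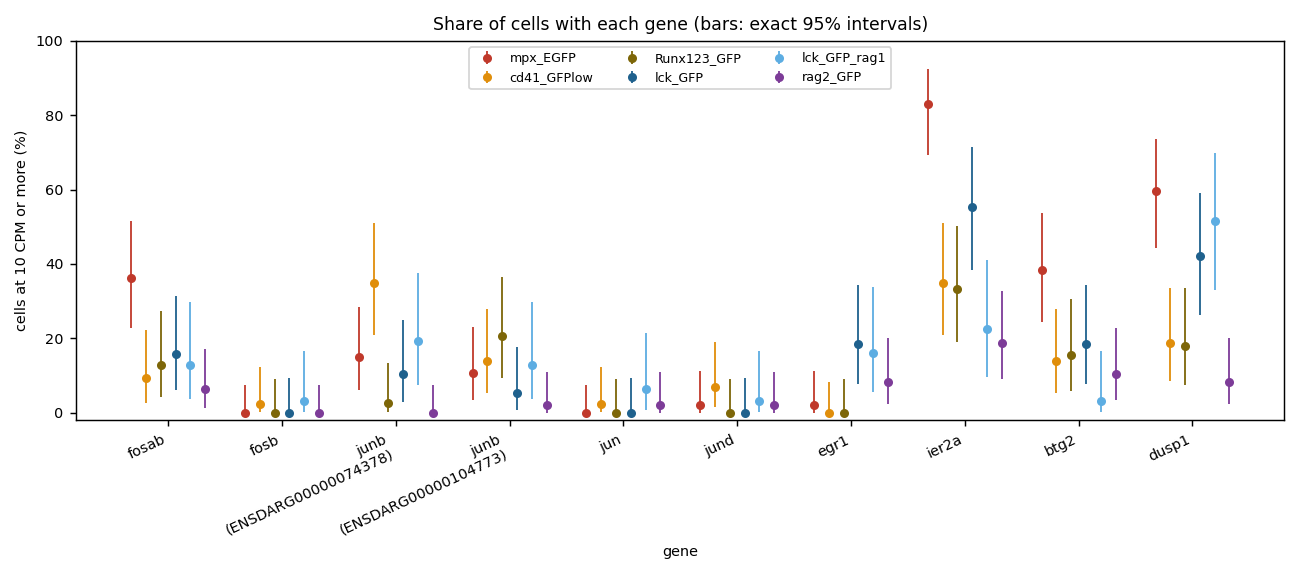
Share of cells with each of the 10 genes at 10 CPM or more, in percent, by reporter line. Points are shares and bars exact 95% intervals; ier2a in mpx_EGFP, at 83.0%, is the highest share, and jun, jund and fosb stay below 10% in every line.

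Counted over the 10 genes, mpx_EGFP cells carried a median of 2 and up to 6, lck_GFP cells a median of 1.5 and up to 6, and rag2_GFP cells a median of 0 and up to 3. At least 1 gene was present in 45 of 47 mpx_EGFP, 33 of 43 cd41_GFPlow, 27 of 39 Runx123_GFP, 27 of 38 lck_GFP, 22 of 31 lck_GFP_rag1 and 19 of 48 rag2_GFP cells. At least 3 were present in 42.6% of mpx_EGFP cells (28.3 to 57.8%), 26.3% of lck_GFP, 25.8% of lck_GFP_rag1, 16.3% of cd41_GFPlow, 5.13% of Runx123_GFP and 4.17% of rag2_GFP cells. These shares were highest in mpx_EGFP. For at least 3 genes its interval overlapped those of lck_GFP (13.4 to 43.1%), lck_GFP_rag1 (11.9 to 44.6%) and cd41_GFPlow (6.81 to 30.7%). The summed CPM of the 10 genes was higher in lck_GFP, at 2111, than in mpx_EGFP, at 1902. The mpx_EGFP cells had fewer detected genes than cd41_GFPlow and Runx123_GFP cells but more than lck_GFP, lck_GFP_rag1 and rag2_GFP cells. The part of detection in these shares was not tested. At least 5 of the 10 genes were present in 2 of 47 mpx_EGFP cells (4.26%, 0.520 to 14.5%) and in 2 of 38 lck_GFP cells (5.26%, 0.644 to 17.7%). The same held for 2 of 43 cd41_GFPlow cells (4.65%) and 1 of 31 lck_GFP_rag1 cells (3.23%), and for no Runx123_GFP or rag2_GFP cell. Across cells, the number present had a Spearman rho with detected genes of 0.43 in lck_GFP and -0.00 in mpx_EGFP, as descriptions over 38 and 47 cells. With each cell thinned to 200000 reads, which left out 6 lck_GFP and no mpx_EGFP cells, at least 3 were present in 42.6% of mpx_EGFP and 25% of lck_GFP cells.

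**Figure D3:**
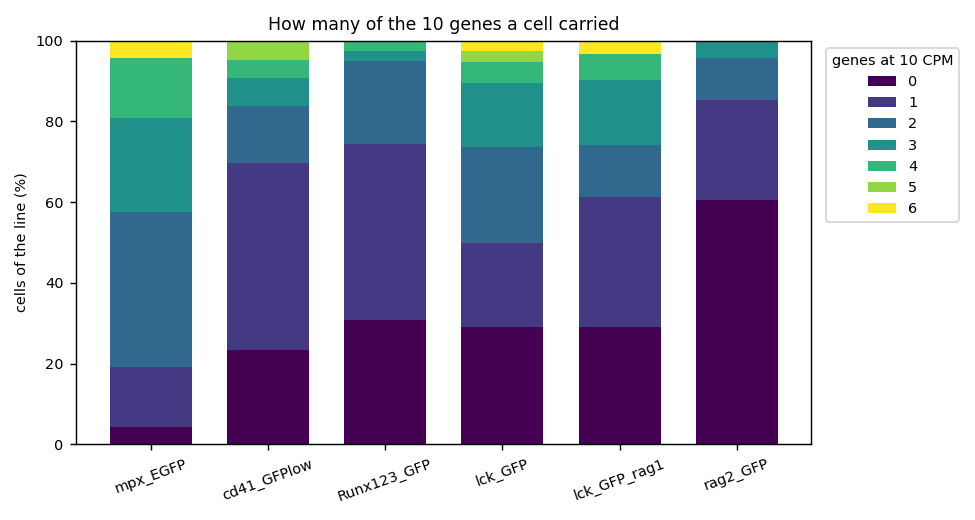
Share of cells of each reporter line, in percent, that carried 0 to 6 of the 10 genes at 10 CPM or more. In mpx_EGFP 2 of 47 cells carried none, against 29 of 48 in rag2_GFP.

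Between the myeloid reporter line and the cd41_GFPlow line, fosab, ier2a, btg2 and dusp1 were all higher in mpx_EGFP and junb (ENSDARG00000074378) was lower. A gene was counted as higher or lower at a log2 ratio of (CPM + 1) of at least 2, which is 4-fold, with 10 CPM in at least 1 of the lines compared. The fosab level was 12.7-fold higher (11.9 to 13.5), that of dusp1 12.1-fold (11.6 to 12.6), that of ier2a 9.0-fold (8.61 to 9.42) and that of btg2 7.64-fold (7.26 to 8.06). The egr1 gene was at least 203-fold higher, from 1 mpx_EGFP cell against no read in cd41_GFPlow. Without each line's top cell its log2 ratio was 0. The level of junb (ENSDARG00000074378) was 34.8 CPM in mpx_EGFP and 161 CPM in cd41_GFPlow, which is 4.63-fold lower (4.31 to 4.98). In all, 5 of the 8 measured genes were higher, egr1 among them, and 1 was lower, where 9.74% of all 9138 measured genes were higher and 27.6% lower. The median log2 ratio was 3.02 over the 8 genes and -0.63 over all measured genes. The 10 genes were noted in mpx_EGFP, and egr1 passed the filter through mpx_EGFP alone, at 12.8 CPM. Nothing is therefore read from this count and median about the genes as a set. Other scalings moved the median of all genes by 0.32 (TMM) and 0.49 (DESeq2 size factors), and under both junb (ENSDARG00000074378) was no longer counted as lower, with log2 ratios of -1.86 and -1.69. It was not counted as lower either after thinning (-1.92), with the mean of per-cell CPM (-1.97) or with a pseudocount of 10 CPM (-1.93).

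Set against the mean of the other 5 lines, mpx_EGFP was higher for fosab, with 331 CPM against 64.7 CPM and a log2 ratio of 2.34. It was lower for jun (log2 ratio -5.17), egr1 (-3.10) and jund (-2.78), so 1 of the 9 measured genes was higher and 3 lower, where 6.03% of all genes were higher and 39.2% lower. The lower count was near the background and the higher count is 1 gene, so nothing is read from these counts about the genes as a set. The log2 ratios of btg2, dusp1 and ier2a were 1.62, 1.04 and 0.94, and without each line's top cell that of btg2 was 2.04, which passes the size rule. In cells with at least 1000 detected genes the fosab ratio was 1.51, which does not pass it. Since jun and jund in the other lines rest on a few cells, their lower counts do as well: in cells with at least 1000 detected genes the jund ratio was 0.19. The same mpx_EGFP cells entered both comparisons.

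On the plate that they shared, lck_GFP had more dusp1, fosab and junb (ENSDARG00000074378) than rag2_GFP. The dusp1 level was 816 CPM in lck_GFP and 53.9 CPM in rag2_GFP, which is 15.1-fold higher (14.4 to 15.9), and 16 of 38 lck_GFP cells had it against 4 of 48 rag2_GFP cells. A single cell gave 25.7% of the dusp1 reads in lck_GFP and 78.0% in rag2_GFP, and the dusp1 log2 ratio was 3.89, 5.58 without each line's top cell and 3.22 after thinning. The fosab level was 4.44-fold higher (4.11 to 4.79), but its log2 ratio of 2.11 was 1.76 after thinning and 1.81 with a pseudocount of 10 CPM, which ends the call. The junb (ENSDARG00000074378) level was 134 CPM in lck_GFP, at least 1415-fold higher than the floor of 3 reads in rag2_GFP, which had no read. This level came from 4 of 38 lck_GFP cells, with 55.8% of the reads from 1 cell. The intervals of the shares, 2.94 to 24.8% in lck_GFP and 0 to 7.40% in rag2_GFP, overlapped. The jund gene was lower, at least 914-fold, because of the 1 rag2_GFP cell, and without each line's top cell its log2 ratio was 0. Of 8 measured genes 3 were higher and 1 was lower, where 23.5% of all genes were higher and 37.6% lower. Of the genes counted, junb (ENSDARG00000074378) passed the 10 CPM filter through lck_GFP alone and jund through rag2_GFP alone. Nothing is therefore read from these counts about the genes as a set. The ratios of ier2a (2.95-fold), egr1 (1.34-fold) and btg2 (1.11-fold) stayed below 4-fold. Without each line's top cell the ier2a log2 ratio was 2.13, against 1.55 with it, and passes the size rule.

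Between the lck lines, dusp1, fosab and egr1 were at like levels in lck_GFP and lck_GFP_rag1, while ier2a and btg2 were higher in lck_GFP. The fold was 1.02 for dusp1 (1.005 to 1.042), 1.08 for fosab and 1.31 for egr1. The btg2 level was 196 CPM in lck_GFP and 8.77 CPM in lck_GFP_rag1, which is 22.3-fold higher (20.1 to 24.9). It was present in 7 of 38 lck_GFP cells (7.74 to 34.3%) against 1 of 31 lck_GFP_rag1 cells (0.0816 to 16.7%), and these intervals overlapped. The ier2a level was 4.16-fold higher (4.04 to 4.29), close to the size rule: its log2 ratio of 2.05 was 1.97 with TMM factors, 1.96 with DESeq2 size factors, 1.98 with a pseudocount of 10 CPM and 0.93 in cells with at least 1000 genes, each of which ends the call. The jun gene was at least 1310-fold lower in lck_GFP, from 2 lck_GFP_rag1 cells. Of 8 measured genes 2 were higher and 1 was lower, where 31% of all genes were higher and 30% lower, so these counts were near the background. Of the genes counted, btg2 passed the 10 CPM filter through lck_GFP alone and jun through lck_GFP_rag1 alone. Both comparisons used the same lck_GFP cells, and the lines carried different markers, as given above, whose part in the result was not tested.

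**Figure D4:**
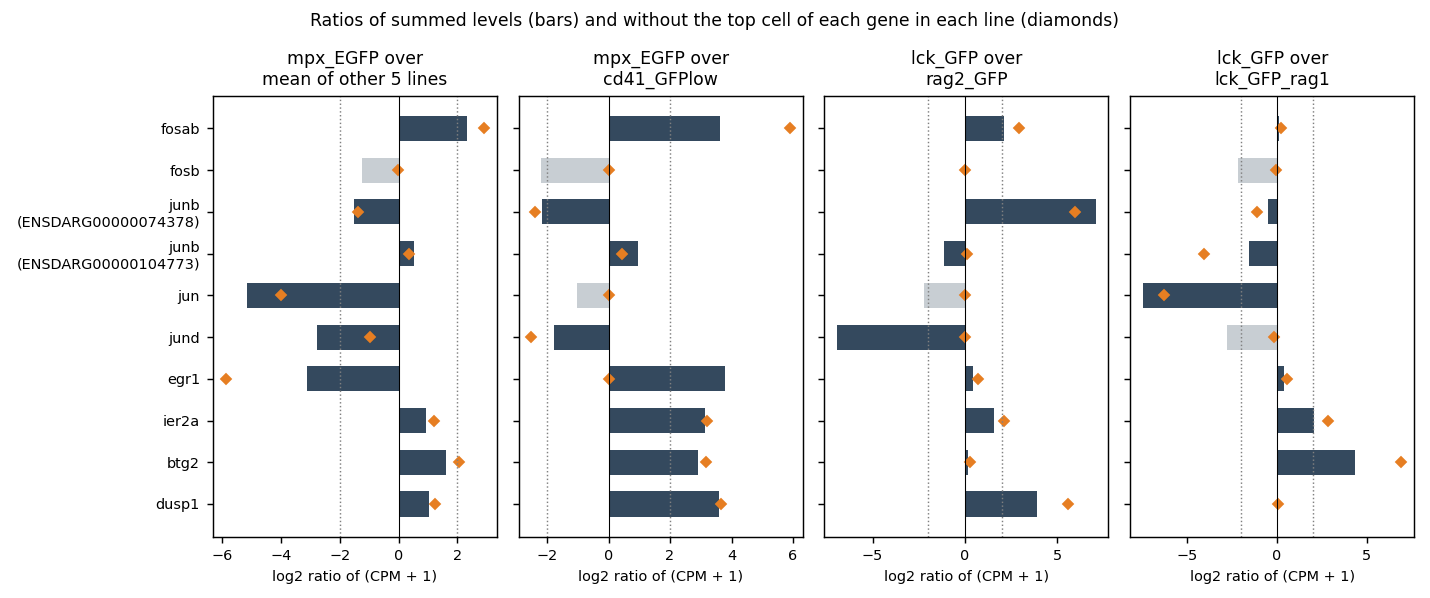
Log2 ratios of (CPM + 1) between lines for the 10 genes, with dark bars for genes measured at 10 CPM in at least 1 line and pale bars for the others. Diamonds give the ratio without the top cell of each gene in each line, and dotted lines mark a log2 ratio of 2 in either direction; the jund bar of lck_GFP over rag2_GFP has its diamond at 0.

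Cells with neutrophil markers differed between mpx_EGFP and cd41_GFPlow most clearly in dusp1 and ier2a. Among cells with at least 3 neutrophil markers, dusp1 was present in 28 of 47 mpx_EGFP cells (59.6%, 44.3 to 73.6%) against 1 of 20 cd41_GFPlow cells (5.00%, 0.127 to 24.9%). In these cells ier2a was present in 39 of 47 mpx_EGFP cells and 7 of 20 cd41_GFPlow cells, and fosab in 17 of 47 mpx_EGFP cells and 2 of 20 cd41_GFPlow cells. The gene junb (ENSDARG00000074378) was present in 7 of 47 mpx_EGFP cells and 8 of 20 cd41_GFPlow cells, but 7 of these 8 also carried macrophage markers. Of the 20 cd41_GFPlow cells 8 carried both lists, and among the 12 with the neutrophil list alone junb (ENSDARG00000074378) was present in 1, ier2a in 4, btg2 in 2 and dusp1 and fosab in 0. The summed neutrophil markers had a median of 71670 CPM over all mpx_EGFP cells and 760 CPM over all cd41_GFPlow cells, and the part of this gap in the result was not tested. The intervals of mpx_EGFP and cd41_GFPlow did not overlap for dusp1 and ier2a and overlapped for fosab, btg2 and both junb genes. The median depth was 457962 reads in the mpx_EGFP cells and 1137657 reads in the cd41_GFPlow cells, on different plates.

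Within the cd41_GFPlow line, junb (ENSDARG00000074378) went with macrophage markers. It was present in 12 of 15 cells with at least 3 macrophage markers (80.0%, 51.9 to 95.7%), with a median of 333 CPM, against 3 of 28 cells with fewer (10.7%, 2.27 to 28.2%), with a median of 0. The summed level was 401 CPM in cells with the markers and 26.5 CPM in the others, and the median depth was 1244787 and 1069970 reads. The intervals did not overlap for this gene, while those of fosab, junb (ENSDARG00000104773), ier2a, btg2 and dusp1 did. Among mpx_EGFP cells with 3 or more macrophage markers, 0 of 7 had junb (ENSDARG00000074378). In Runx123_GFP, btg2 was present in 5 of 14 cells with erythroid markers and 1 of 25 without, and ier2a in 2 of 14 with and 11 of 25 without. For both genes the intervals of the cells with and without these markers overlapped. A single cell gave 44.6% of the btg2 reads of Runx123_GFP.

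**Figure D5:**
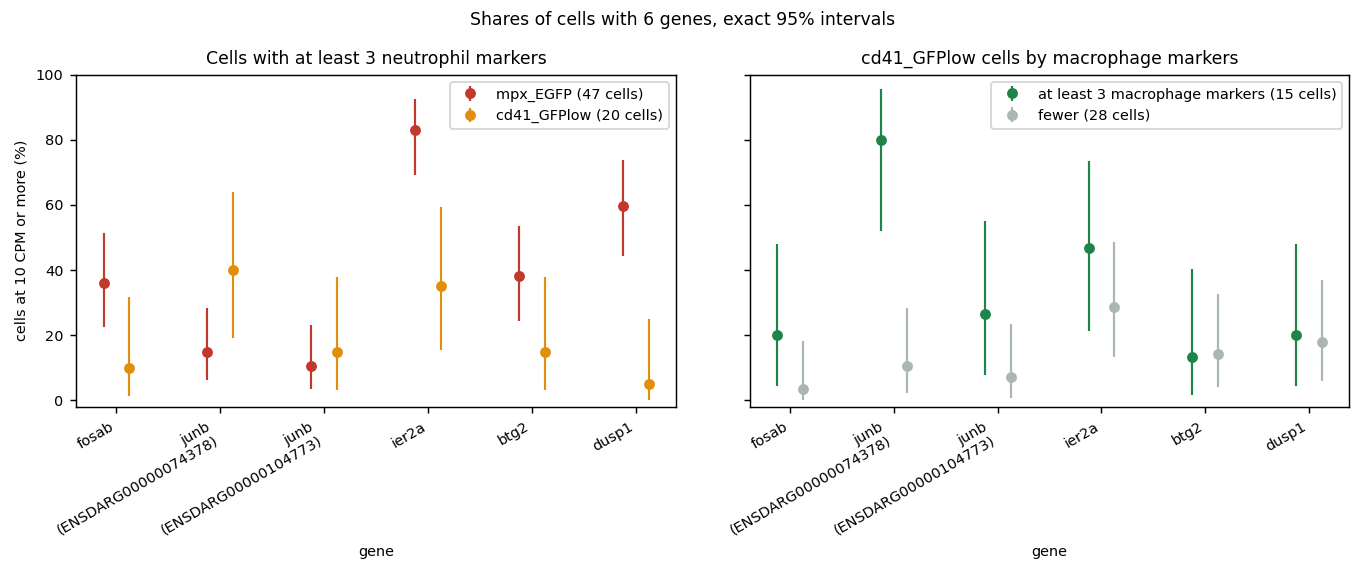
Share of cells, in percent with exact 95% intervals, with 6 genes at 10 CPM or more, for cells with at least 3 neutrophil markers in mpx_EGFP and cd41_GFPlow (left) and for cd41_GFPlow cells with and without at least 3 macrophage markers (right). The dusp1 and ier2a shares part on the left, and that of junb (ENSDARG00000074378) on the right.

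In single cells the genes occurred together loosely. In lck_GFP all 15 pairs of genes with at least 4 positive cells each had a positive Spearman rho, with a median of 0.25, against 12 of 15 pairs and a median of 0.16 in mpx_EGFP. These rho values are descriptions over 38 and 47 cells of unequal library depth, and both genes of a pair share the depth of each cell. The part of depth in the rho values was not tested. The pairs share genes, so they are not independent. They also differ between the lines, since egr1 entered in lck_GFP only and junb (ENSDARG00000104773) in mpx_EGFP only. The closest pair in lck_GFP was btg2 and egr1 (rho 0.63), with egr1 in 5 of 7 cells that had btg2 and in 2 of 31 that did not. The ier2a gene was present in 12 of 16 lck_GFP cells with dusp1 and in 9 of 22 without it. In mpx_EGFP, fosab was present in 12 of 28 cells with dusp1 and in 5 of 19 without it. For ier2a and dusp1 the mpx_EGFP rho was -0.19, the lowest of the 15 pairs. There dusp1 was present in 24 of 39 cells with ier2a and in 4 of 8 without it. The commonest state in mpx_EGFP was ier2a with dusp1 and no other of the genes, in 8 of 47 cells. In lck_GFP_rag1 it was none of the genes, in 9 of 31 cells, followed by dusp1 alone, in 8.

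The genes whose CPM followed the summed CPM of the 10 genes most closely over 47 mpx_EGFP cells were CEBPB (rho 0.65), mcl1b (0.55), slc7a11 (0.53), actb2 (0.52), TIMP2 (0.51), DDX5 (0.50), LTA4H (0.50), malat1 (0.47), ctss1 (0.46) and TXNIP (0.43), of 1287 genes screened with a median rho of -0.06. CEBPB encodes a transcription factor of myeloid cells and mcl1b a survival protein of the Bcl-2 family. Over 38 lck_GFP cells, the 10 closest of 523 genes had rho values between 0.33 and 0.40, with a median rho of -0.01 over all 523. They were EIF3I and srrm1 (both 0.40), BACH2 (0.39), kmt2a (0.37), tpm3, srgn and tsc22d3 (each 0.35), SVIL (0.34), SESN1 and RUNX3 (both 0.33). How high the top rho would be by chance was not tested in either line.

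Other AP-1 family and partner genes followed no single direction. Of 14 measured in mpx_EGFP against the mean of the other 5 lines, 1 was higher and 4 were lower, where 6.03% of all genes were higher and 39.2% lower, and the median of their log2 ratios was -0.25 against -1.34 over all genes. The higher one was ATF3, a stress-induced partner of Jun proteins, at 141 CPM in mpx_EGFP and with no read in the other 5 lines. In lck_GFP against rag2_GFP, 5 of 9 were higher and 1 was lower, where 23.5% of all genes were higher and 37.6% lower, and the median of their log2 ratios was 2.81 against -0.58 over all genes. Of the list, 8 genes reached 10 CPM in lck_GFP and 4 in rag2_GFP, so some of the 9 passed the filter through lck_GFP alone. Such a filter can tilt the count and the median towards lck_GFP. How far it did was not tested, so nothing is read from the count and the median about this list. Among the 9, maff, a small Maf protein gene, had 126 CPM in lck_GFP and no read in rag2_GFP, and BACH2 had 103 CPM in lck_GFP and 26.8 CPM in rag2_GFP.

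Of 37 other immediate early and early response genes measured in mpx_EGFP against the mean of the other lines, 8 were higher and 9 lower, and the median of their log2 ratios was 0.19. For this and the following lists the background is again 6.03% of all genes higher and 39.2% lower in mpx_EGFP, and 23.5% higher and 37.6% lower in lck_GFP against rag2_GFP. CEBPB stood at 2851 CPM in mpx_EGFP and at 5.08 to 529 CPM in the other lines, mcl1b at 694 CPM in mpx_EGFP and at most 190 CPM elsewhere. In lck_GFP against rag2_GFP, 10 of 28 were higher and 8 lower. Of 32 MAP kinase feedback and upstream genes 1 was higher and 11 lower in mpx_EGFP, the higher one being mapk11, a p38 kinase gene, at 544 CPM in mpx_EGFP and at most 207 CPM elsewhere, and of 27 in lck_GFP against rag2_GFP 8 were higher and 9 lower. Of 14 NF-kB response genes 0 were higher and 4 lower in mpx_EGFP, and 4 were higher and 2 lower in lck_GFP against rag2_GFP. SOCS1, named after its values were seen, had 272 CPM in lck_GFP and no read in rag2_GFP. Of this list 13 genes reached 10 CPM in lck_GFP and 10 in rag2_GFP, so some, SOCS1 among them, passed the filter through lck_GFP alone. Nothing is therefore read from the lck_GFP count about this list. Of heat shock genes, 1 of 23 was higher and 10 lower in mpx_EGFP, and 1 of 20 was higher and 2 lower in lck_GFP against rag2_GFP. The lower counts of the MAP kinase and heat shock lists in mpx_EGFP were near the background, so nothing is read from them about these lists. HSPA8 (ENSDARG00000068992), the constitutive Hsp70 chaperone gene, had 6652 CPM in mpx_EGFP and between 3167 and 7979 CPM in the other lines.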

How the data were processed

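Cells were sorted 1 to a well and made into Smart-seq2 libraries, per the labels. The deposited values are raw read counts, 1 row per Ensembl gene and 1 column per cell. STAR, Picard, featureCounts and build GRCz10 are given per the submitters' processing notes, with no versions. No molecular identifiers are named, and the use of strand is not given in the sources used here. The table had 0 cell columns without a label, no duplicated cell columns, and 19349 of 21876 genes with a symbol. No doublet caller was run, since each well was sorted as 1 cell, and all 246 cells were kept.

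Reads were summed per line and scaled to CPM, and ratios used a pseudocount of 1 CPM. Python 3.11.15, numpy 2.4.6, pandas 2.3.3 and scipy 1.17.1 were used, and R 4.3.3 with edgeR 4.0.16 and DESeq2 1.42.0 gave TMM and size factors as alternatives only. A fold against no read used a floor of 3 reads in that line. The calculation of the ratios was checked on simulated counts with known folds. Each line is 1 sample, so no statistical test was made between lines.

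The 10 genes and all lists were chosen with earlier results of these data known, and mpx_EGFP was the line in which the 10 genes were noted. List genes were named by the highest level in mpx_EGFP or lck_GFP, and the closest genes as the 10 with the highest rho among genes at 10 CPM in at least 25% of cells, clone names left out. SOCS1 and NR4A1 were named after their values were seen. Of 261 list entries, 60 genes were matched after dropping a paralog suffix (a final a or b, or a point and digit), and 32 entries had no match. Alternatives were other scalings, thinning, filters, pseudocounts and size rules, and, added after seeing the data, leaving out cells with more than 10% mitochondrial reads. The splits by marker list were also chosen after the data were seen.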

Additional observations from a re-analysis of the deposited data

How the results depend on the processing

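Members counted as higher in mpx_EGFP than the mean of the other lines numbered 1, and 2 with DESeq2 size factors or without the top cell of each gene in each line, 3 at a log2 ratio of 1, and 0 at a log2 ratio of 3 or in cells with at least 1000 genes. The count lower in lck_GFP than rag2_GFP was 1, and 2 with the mean of per-cell CPM, with no filter or at a log2 ratio of 1, and 0 in cells with at least 1000 genes or without the top cells. The count higher in lck_GFP than lck_GFP_rag1 was 2, and 1, with the ier2a call lost, with TMM, DESeq2 size factors, cells with at least 1000 genes, a pseudocount of 10 CPM or a log2 ratio of 3. The count lower there was 1, and 2 without the top cells or at a log2 ratio of 1, and 3 with no filter. The count lower in mpx_EGFP than cd41_GFPlow was 1, and 0 with TMM, DESeq2 size factors, the mean of per-cell CPM, thinning to 200000 reads, a pseudocount of 10 CPM or a log2 ratio of 3, and 2 with no filter or at a log2 ratio of 1. The jund ratio of mpx_EGFP over the mean of the other lines reversed to 0.19 in cells with at least 1000 genes. The share of cells with 5 genes was 42.6% of mpx_EGFP and 26.3% of lck_GFP cells for 3 genes, and 0% in both for 7 genes. The cause of these changes was not tested. Of the other alternatives, 80 counts and shares stayed within 1.5 times or within the interval, 115 single-gene ratios kept their call and 20 lost it. Leaving out the 1 cell with more than 10% mitochondrial reads, in lck_GFP_rag1, moved none of the 4 counts of higher genes. Depth and 1 sample per line limit all values. No paired analysis was possible because the labels give no replicate numbers.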

Other observations

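The genes ATF3 and NR4A1 were also followed in mpx_EGFP cells, and were chosen after their values were seen. ATF3, a stress-induced transcription factor, was present in 9 of 47 mpx_EGFP cells, at 29.2 to 1869 CPM, and in no cell of another line. In mpx_EGFP cells with ATF3, btg2 was present in 7 of 9 against 11 of 38 without it, fosab in 6 of 9 against 11 of 38, and junb (ENSDARG00000074378) in 4 of 9 against 3 of 38. The ier2a gene did not follow this, with 7 of 9 against 32 of 38. NR4A1, an orphan nuclear receptor gene of the early response, was present in 19 of 47 mpx_EGFP cells and in 1 to 4 cells of each other line. In mpx_EGFP cells with NR4A1, fosab was present in 10 of 19 against 7 of 28 without it, and dusp1 in 14 of 19 against 14 of 28. The junb (ENSDARG00000074378) gene was in 4 of 19 against 3 of 28, and btg2 in 8 of 19 against 10 of 28. The share of junb (ENSDARG00000104773) was about the same, 2 of 19 against 3 of 28, and ier2a went the other way, 15 of 19 against 24 of 28. No intervals were calculated for the shares with and without ATF3 or NR4A1.

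The mpx_EGFP cells with mmp13a, a collagenase gene of mature neutrophils, had dusp1 in 24 of 37 cells at 924 CPM, against 4 of 10 cells at 187 CPM without it. No intervals were calculated for these shares, only 10 cells lacked mmp13a, and the difference was not tested. The median number of the 10 genes was 2 in cells with mmp13a and 2 in cells without, and ier2a was present in 31 of 37 against 8 of 10. One lck_GFP_rag1 cell with 6 of the 10 genes carried 16 macrophage markers, 0 T cell markers and 1 NK marker. Its levels enter the lck_GFP_rag1 values of fosab, fosb, both junb genes, ier2a and dusp1. The number of genes present had a Spearman rho with well column between -0.09 and 0.12 within lines, and the median per well row was 2 to 3 in mpx_EGFP and 0 in every row of rag2_GFP.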
